A study of Arabidopsis thaliana with 19 samples.

Results

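The comparison set NILDOG3 against Ler in dormant imbibed seeds of Arabidopsis thaliana and covered every gene of the array. Its members were the 3 arrays titled NILDOG3 and the 5 arrays titled Ler, 8 of the 19 arrays of the series, and it was chosen by genotype and not by any measured value. Ler is the accession Landsberg erecta. NILDOG3 is a near isogenic line in the same background that carries, at the *DELAY OF GERMINATION 3* locus, a segment of the Cape Verde Islands accession, drawn by the study on chromosome 1. Seeds of both genotypes were labelled dormant and whole seeds were imbibed in water for 24 h. The other 11 arrays came from NILDOG1 (5 arrays), NILDOG2 (3 arrays) and NILDOG6 (3 arrays), the lines of other *DELAY OF GERMINATION* loci, and each line is 1 introgression line, so that effects of the locus and of other genes on the same segment cannot be told apart. The study describes a replicate as a bulk of plants from a block design, and states that 3 replicates were used for the arrays. Ler and NILDOG1 have 5 arrays each, and the text of the study does not say where the further arrays came from. The p-values therefore measure the spread between arrays of a genotype. Whether each of the 5 Ler arrays is a separate bulk of that design cannot be told.

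A dormant seed does not germinate although water, light and temperature allow it, and dry storage, called after-ripening, releases this state. Abscisic acid holds the seed dormant, whereas gibberellin promotes germination. Germination is completed when the embryo elongates and the radicle breaks through the endosperm and seed coat, and elongation needs cell walls that yield. Expansins loosen walls without cutting them, and xyloglucan endotransglucosylase/hydrolases (XTHs) cut and rejoin the xyloglucan chains that tether cellulose. Glucosinolates are sulphur-rich defence compounds of the mustard family, and their indole forms are made from tryptophan. Values below are log2 signals after robust multi-array averaging (RMA), so that a difference of 1 is a doubling of signal, and a level can be set only against the level of the same probe set on another array.

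In NILDOG3, genes for wall loosening and for glucosinolate synthesis were among those lower than in Ler, and few genes were higher. Of 21313 genes, 173 (0.812%) passed an adjusted p under 0.01 in limma with Benjamini-Hochberg adjustment. Of these, 145 (0.68%) were lower and 28 (0.131%) higher in NILDOG3. On chromosome 1 there were 77 called genes of 5512 (1.4%), 16 higher (0.29%) and 61 lower (1.11%). Off chromosome 1 there were 96 of 15801 (0.608%), 12 higher (0.0759%) and 84 lower (0.532%). At an adjusted p under 1e-04 there were 15 genes (0.0704%), all on chromosome 1, and at 0.05 there were 614 (2.88%), 145 higher (0.68%) and 469 lower (2.2%). In 171 of the 173 genes the NILDOG3 and Ler arrays did not overlap, where 11% of all genes were apart in this way, 4.71% with NILDOG3 above and 6.32% with NILDOG3 below, and *AT5G58980* and *AT1G23050* were the exceptions. Genes named below for the size of their difference were drawn from calls without overlap, so separation of their arrays is no further evidence. In whole seeds, fewer cells of a type and less RNA per cell cannot be told apart.

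Whole-array values moved with these counts, and their part in them was not tested. The array medians lay between 4.65 and 4.69 in NILDOG3 and between 4.72 and 4.92 in Ler, a difference of -0.12 (exact permutation test over the 56 splits, two-sided p = 0.0357, the smallest that 3 against 5 arrays can give). Centring each array on its median moved the median difference over all genes from 0.01 to 0.14 and turned the split of the calls to 56 higher and 117 lower, with 27 and 50 on chromosome 1 and 29 and 67 off it. Ler replicate 2 stood closest to NILDOG3, with correlations over genes of 0.987 to 0.989 against 0.971 to 0.987 for the other Ler arrays. It was the lowest Ler array in 110 of the 145 genes that fell, and NILDOG3 replicate 2 was the lowest NILDOG3 array in 98 of them. Without Ler replicate 2 the test called 474 genes, without NILDOG3 replicate 2 it called 23, of which 21 lay on chromosome 1, and without any other single array of the 8 it called 49 to 113. Marker values are given beside the seed labels as a description, since levels of different probe sets cannot be ranked. Of genes of seed storage, oil bodies and late embryogenesis, 9 of 9 lay between 12.07 and 14.51 in Ler. In NILDOG3 they lay between 13.06 and 14.35. Of the green seedling markers 1 of 5 was measured, *RCA*, at 4.13 to 4.99 in Ler and 3.95 to 4.35 in NILDOG3. The class means of the seed coat, pollen and root markers lay under 5 on every array of both groups. The root marker *RHD6* by itself read 5.16 to 5.82 in Ler and 5.31 to 5.71 in NILDOG3.

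**Figure D1:**
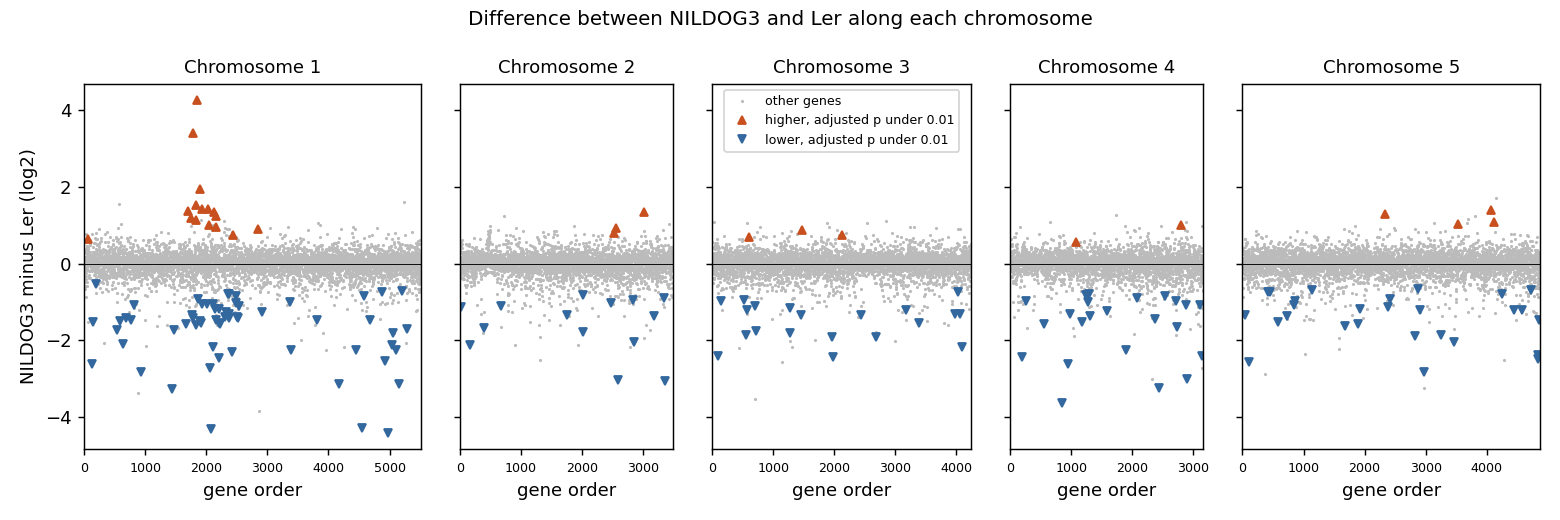
Difference between the mean of the 3 NILDOG3 arrays and the mean of the 5 Ler arrays (log2, vertical axis) for each gene in chromosome order (horizontal axis), with 1 panel per chromosome. Triangles mark genes past an adjusted p under 0.01, upward for the 28 higher genes and downward for the 145 lower ones, and grey points are the other genes; 16 of the upward triangles lie on chromosome 1.

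Calls crowded in 1 stretch of chromosome 1. When the genes of this chromosome were taken in order in bins of 500, the bins from *AT1G19010* to *AT1G26170* and from *AT1G26180* to *AT1G32630* held 16 and 27 calls, and each of the other full bins held 1 to 7. Together those 1000 genes gave 43 calls (4.3%), 14 higher and 29 lower, whereas the remaining 4512 genes of the chromosome gave 34 (0.754%), 2 higher and 32 lower. The bins were compared after the values were seen and the difference was not tested. ATH1 probes were designed on the sequence of another accession, Columbia, so a sequence difference under a probe and a difference in transcript level cannot be told apart for genes on the introduced segment. Of the 173 calls, 21 held under all of the 18 alternative fits in which they were measured, and 20 of these 21 lay in this stretch; the other was *AT1G75388*, also on chromosome 1, and no call off chromosome 1 held under all of them.

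The largest called rises were in this stretch. *AT1G23120*, which has no gene name in the RefSeq table, read 4.59, 5.70, 5.39, 4.94 and 5.45 in Ler replicates 1 to 5 and 9.01, 9.85 and 9.53 in NILDOG3. The groups were apart by more than 3 units, and the difference was 4.25 ± 0.28 (SE, n = 3 and 5; limma adjusted p = 3.95e-08). *ATL15* (AT1G22500), of the ATL family of RING-H2 ubiquitin ligases, read 4.68, 4.33, 3.95, 4.38 and 4.20 in Ler and 8.0, 7.16 and 7.92 in NILDOG3. All NILDOG3 arrays were above all Ler arrays, with a difference of 3.38 ± 0.28 (SE; adjusted p = 9.1e-07). The other large rises were smaller: 1.93 for *AT1G23890*, 1.51 for *AT1G22980*, 1.42 for *EMB2421* (AT1G24340), a gene named for its embryo-defective mutant, and 1.41 for *AT1G26400*. *SCL1* (AT1G21450), a SCARECROW-like regulator, rose by 1.38, *IRX9-L* (AT1G27600), related to a gene of xylan synthesis, by 1.34, and *RDM16* (AT1G28060), which acts in RNA-directed DNA methylation, by 1.24.

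Falls in the same stretch included a gene that was near the bottom of the scale in NILDOG3. *AT1G27030*, without a gene name in the table, read 6.41, 8.69, 7.60, 7.01 and 7.71 in Ler and 2.76, 3.42 and 3.38 in NILDOG3. No array of one group reached the other, and the difference was -4.30 ± 0.42 (SE; adjusted p = 8.03e-06). *CYP97A3* (AT1G31800), the LUT5 hydroxylase of lutein synthesis, read 6.47, 6.12, 6.29, 6.67 and 6.13 in Ler and 4.31, 3.71 and 4.07 in NILDOG3. Its difference was -2.30 ± 0.19 (SE; adjusted p = 8.54e-07). Of 17 carotenoid genes it was the 1 that passed at 0.01 (5.88% against 0.812% of all genes). The mannosidase gene *MNS5* (AT1G27520) held a narrow range in Ler, from 6.18 to 6.34, and read 3.92, 4.12 and 4.20 in NILDOG3. It had the smallest adjusted p of all genes, 2.21e-08, with a difference of -2.16 ± 0.13 (SE). *LEA4-1* (AT1G32560), a late embryogenesis abundant gene, read 12.82 to 13.05 in Ler and 11.40, 11.70 and 11.56 in NILDOG3, a fall by 1.38 on the log2 scale (adjusted p = 4.04e-07). Other falls were by 1.60 for *FRO3* (AT1G23020), a ferric reductase, by 1.33 for *UGT85A2* (AT1G22360), a glucosyltransferase, by 1.32 for *IMPL1* (AT1G31190), of the inositol monophosphatase family, and by 0.92 for *KNAT6* (AT1G23380), a homeobox gene of shoot meristems. *EXPA10* and *UGT74B1*, described with their groups, lie in the same stretch.

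Elsewhere on chromosome 1 nearly all called genes were lower, and these held the deepest fall of the comparison. *GASA6* (AT1G74670), a gibberellin-stimulated gene for a small secreted peptide that promotes germination, read 10.76, 8.93, 10.22, 11.24 and 9.98 in Ler and 5.50, 5.39 and 6.58 in NILDOG3. The lowest Ler array, replicate 2, was still more than 2 units above the highest NILDOG3 array. The difference was -4.41 ± 0.63 (SE; adjusted p = 0.000845), a 21.2-fold lower signal. Of 18 gibberellin signalling genes, *GASA6* was the 1 called (5.56% against 0.812% of all genes). *ATLP-1* (AT1G18250), a thaumatin-like protein, read 7.84, 6.00, 7.07, 7.96 and 7.96 in Ler and 4.26, 3.83 and 4.20 in NILDOG3, with no overlap. It fell by 3.27 (adjusted p = 0.00908). *G-TMT* (AT1G64970), the methyltransferase that makes alpha-tocopherol from gamma-tocopherol, read 8.90, 7.12, 7.96, 9.02 and 8.33 in Ler and 4.94, 5.02 and 5.45 in NILDOG3. Its groups were likewise apart, and it fell by 3.13 (adjusted p = 0.00325). *ELP* (AT1G12090), an extensin-like protein gene, fell by 2.83, with 6.75 to 8.59 in Ler and 4.63 to 5.26 in NILDOG3.

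Genes of wall loosening were among the falls on chromosome 1 and off it. The list of these genes was chosen with earlier results of these data known, so its counts are a description. Of 38 measured expansin, XTH and related genes, 8 were lower and 0 higher at an adjusted p under 0.01 (21.1% against 0.812% of all genes), and 12 were lower at 0.05 (31.6% against 2.88%). The median difference of the list was -0.24, against 0.01 over all genes, and it was -0.12 against 0.14 after centring. The families taken whole differed from each other: of 21 alpha-expansins 6 were lower at 0.01 (28.6%) and the median was -0.30, whereas of 30 XTH genes 2 were lower (6.67%), 18 had a higher mean and the median was 0.07. *EXPA1* (AT1G69530) read 9.32, 6.85, 8.44, 9.70 and 8.54 in Ler and 4.48, 3.91 and 4.46 in NILDOG3. Ler replicate 2 was the low Ler array here, yet it stayed more than 2 units above NILDOG3, and the difference was -4.29 ± 0.65 (SE; adjusted p = 0.00134). *EXPA3* (AT2G37640, named *EXP3* in the table) read 8.73, 7.12, 8.11, 8.08 and 7.54 in Ler and 5.12, 4.48 and 5.09 in NILDOG3, without overlap. It fell by 3.02 (adjusted p = 0.000674). *EXPA10* (AT1G26770) read 8.11, 6.04, 7.13, 8.08 and 6.86 in Ler and 4.92, 4.40 and 4.25 in NILDOG3, again apart, and fell by 2.72.

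The remaining called expansins were on other chromosomes. *EXPA9* (AT5G02260) read 7.83, 6.04, 7.16, 7.55 and 6.77 in Ler and 4.85, 4.35 and 4.32 in NILDOG3, which left the groups apart. It fell by 2.56 (adjusted p = 0.00415). *EXPA15* fell by 2.11 and *EXPA8* by 2.05. Among the XTHs, *XTH15* (AT4G14130) read 7.81, 6.55, 7.20, 7.83 and 7.24 in Ler and 4.85, 4.69 and 4.56 in NILDOG3. All Ler arrays were higher, by 2.63 in the mean (adjusted p = 0.00256). *XTH16* (AT3G23730) fell by 1.90. *EXPA2*, *XTH5*, *XTH19* and *AXY8* passed at 0.05 only, with differences of -2.88, -2.36, -3.01 and -0.94. *EXPA5* and *XTH24* had NILDOG3 arrays above all Ler arrays, by 0.28 and 0.12 in the mean, and neither passed. The other members lay between -1.67 (*XTH9*, adjusted p = 0.0561) and 0.38 (*XTH25*).

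Without NILDOG3 replicate 2 none of the 8 wall genes passed at 0.01: their differences were then -4.11 to -1.86 and their adjusted p 0.011 to 0.0764. With all arrays the differences were -4.29 to -1.90. With Ler replicates 4 and 5 as the only control, 3 genes of the list passed, and without Ler replicate 2, 10 did. Leaving out NILDOG3 replicate 1 or 3 left 4 and 3, and leaving out Ler replicate 1, 3 or 4 left 5 each. *EXPA2* is also an endosperm marker, and the mean of the endosperm markers *EPR1* and *EXPA2* lay at 9.88 to 11.44 in Ler and 9.17 to 9.59 in NILDOG3. *EPR1* itself differed by 0.25 (adjusted p = 0.442), with 12.78 to 13.46 in Ler and 13.17 to 13.52 in NILDOG3. The part of endosperm RNA in these falls was not tested. Other wall enzymes fell on chromosome 1: *XYL1* (AT1G68560), the alpha-xylosidase that trims xyloglucan, by 2.25, and *BXL2* (AT1G02640), a beta-xylosidase, by 2.62.

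**Figure D2:**
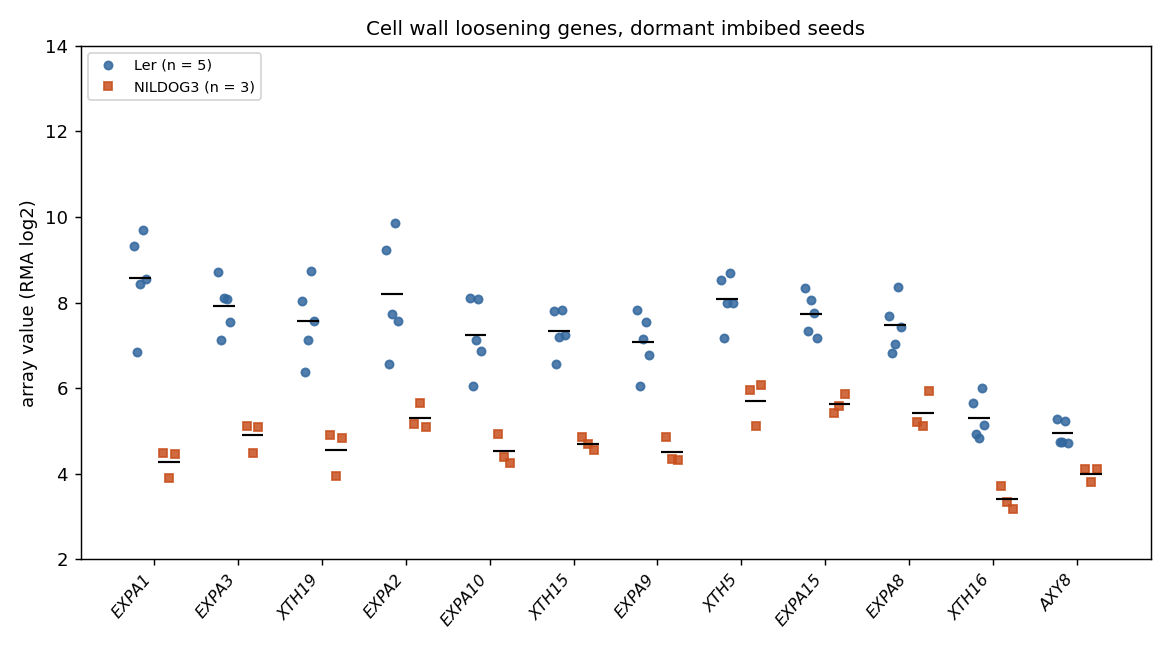
Array values (RMA log2, vertical axis) of the 12 wall loosening genes past an adjusted p under 0.05, ordered by size of difference, with circles for the 5 Ler arrays, squares for the 3 NILDOG3 arrays and lines for the means. In each of the 12 genes every NILDOG3 array lies below every Ler array. The 8 genes that passed at 0.01 range from -4.29 for *EXPA1* to -1.90 for *XTH16*.

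Genes linked to glucosinolates, with those of the indole branch of synthesis among them, were the other large group of falls. The list of 36 measured glucosinolate genes was drawn up after several of them had been seen among the calls, so its count is a description. Of these, 14 were lower and 0 higher at 0.01 (38.9% against 0.812% of all genes). At 0.05, 19 were lower (52.8% against 2.88% of all genes), and the median difference was -0.87. The first steps of the indole branch were among them. *CYP79B2* (AT4G39950), which turns tryptophan into indole-3-acetaldoxime, read 6.79, 5.41, 5.86, 6.96 and 6.43 in Ler and 4.28, 3.45 and 3.95 in NILDOG3. The groups did not overlap, and the difference was -2.40 ± 0.36 (SE; adjusted p = 0.00131). *CYP83B1* (AT4G31500), the next enzyme, read 10.14, 8.70, 9.45, 10.42 and 9.80 in Ler and 6.61, 5.99 and 6.81 in NILDOG3. Its arrays were apart as well, with a fall by 3.23 (adjusted p = 0.00325).

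Later steps of the pathway, and genes of the list outside synthesis itself, were also lower. *UGT74B1* (AT1G24100), which adds glucose, fell by 1.54, and the sulphotransferases of the last core step, *SOT16* (AT1G74100), which acts on indole forms, and *SOT17* (AT1G18590), which acts on aliphatic forms, by 2.54 and 1.73. *APK* (AT2G14750), the kinase that supplies their sulphate donor, fell by 1.09. *IGMT5* (AT1G76790), which methylates indole glucosinolates, read 9.29, 7.58, 8.75, 9.60 and 8.94 in Ler and 6.24, 5.04 and 5.84 in NILDOG3. The groups were separate and the fall was by 3.12 (adjusted p = 0.0063). The transporter *GTR2* (AT5G62680) fell by 1.22 and *MYC4* (AT4G17880), a bHLH activator of the pathway, by 1.37. *GSTF9*, *GSTF10*, *GSTU20*, *AOP1* and *BGLU28* made up the rest of the 14, with falls between 0.81 and 1.77. Not all of the 14 are genes of synthesis, and glucosinolate content was not measured.

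Genes linked to aliphatic glucosinolates were found on both sides of the threshold, and the branches were not compared by a test. *SOT17*, *GSTU20* and *AOP1* were among the 14 that fell. *CYP83A1*, *MAM1*, *MAM3*, *BCAT4*, *MYB28* and *MYB29*, genes of methionine-derived glucosinolates, differed by 0.05, 0.04, 0.08, 0.08, 0.18 and -0.03, and none passed. The indole regulator *MYB34* differed by -2.51 and passed at 0.05 only (adjusted p = 0.0116), as did *SUR1*, *CYP79B3*, *GGP1* and *APK2*, whereas *MYB51* differed by 0.00. Without NILDOG3 replicate 2 none of the 14 genes passed at 0.01, with differences of -2.99 to -0.74 and adjusted p of 0.0123 to 0.0902. Leaving out Ler replicate 1, Ler replicate 4, NILDOG3 replicate 1 or NILDOG3 replicate 3 left 1, 2, 1 and 1 genes. Leaving out Ler replicate 3 left 7, Ler replicate 5 left 9, and Ler replicate 2 gave 18.

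**Figure D3:**
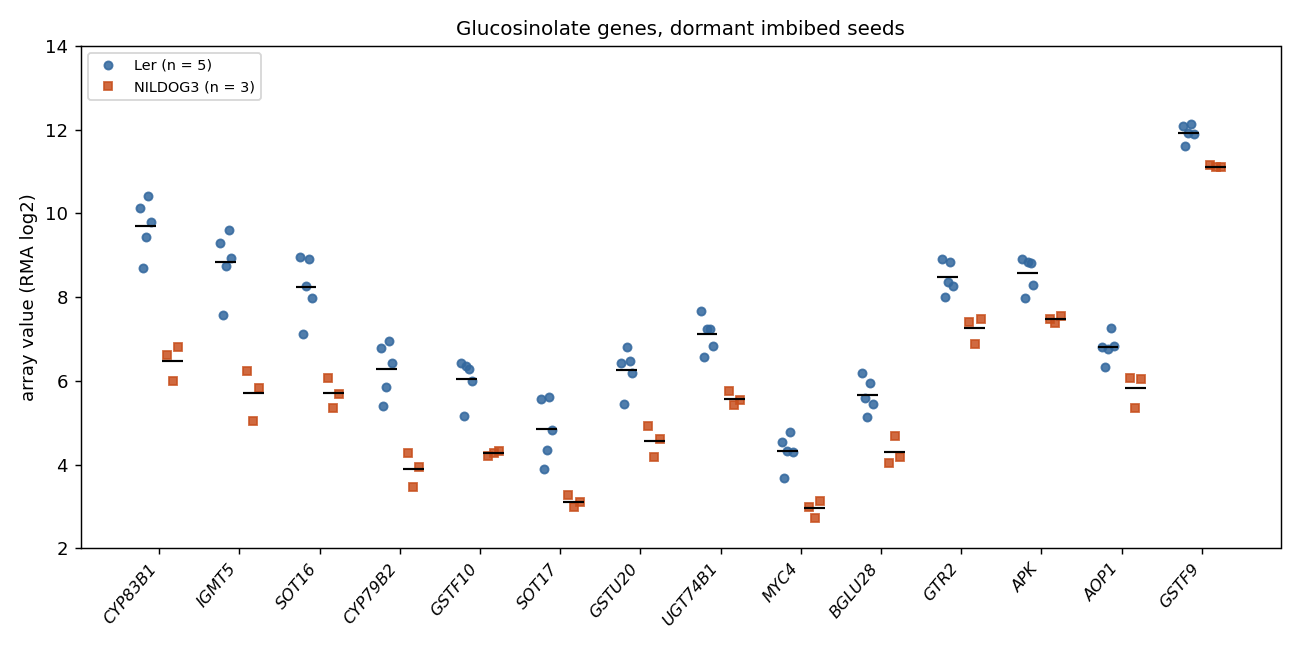
Array values (RMA log2, vertical axis) of the 14 glucosinolate genes past an adjusted p under 0.01, ordered by size of difference, with circles for the 5 Ler arrays, squares for the 3 NILDOG3 arrays and lines for the means. No NILDOG3 array reaches the lowest Ler array in any of the 14 genes, from *CYP83B1* with a difference of -3.23 to *GSTF9* with -0.81.

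Among called genes off chromosome 1 the deepest fall was in *scpl20* (AT4G12910), a serine carboxypeptidase-like gene. It read 9.26, 7.69, 7.86, 9.47 and 8.18 in Ler and 4.78, 4.69 and 5.14 in NILDOG3. All Ler arrays were higher by more than 2 units, and the difference was -3.62 ± 0.73 (SE; adjusted p = 0.00958). Of 40 genes with this family name, *scpl20*, *scpl25* and *scpl29* were lower at 0.01 (7.5% against 0.812% of all genes) and 0 were higher. In this family 14 genes had a higher mean and the median difference was -0.03. Its lowest difference, -3.83, was in a member that was not called. *CP1* (AT4G36880), a cysteine proteinase, read 10.15, 8.67, 9.09, 10.39 and 8.80 in Ler and 6.61, 6.06 and 6.54 in NILDOG3. The groups were apart, and it fell by 3.02 (adjusted p = 0.00256). The subtilisin-like protease *SLP2* (AT4G34980) fell by 1.64.

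Further large falls off chromosome 1 came from unlike families. *CB5-C* (AT2G46650), a cytochrome b5 that passes electrons to membrane enzymes, read 7.32, 5.36, 6.57, 7.33 and 6.64 in Ler and 3.77, 3.21 and 3.76 in NILDOG3. Its groups did not overlap, with a fall by 3.06 (adjusted p = 0.000662). *AT5G45670*, without a gene name in the table, read 7.16, 5.18, 6.62, 6.85 and 5.76 in Ler and 3.43, 3.54 and 3.53 in NILDOG3, also apart, and fell by 2.81. *RALFL34* (AT5G67070), of the RALF signalling peptides, read 8.76, 7.36, 7.78, 8.76 and 8.20 in Ler and 5.68, 5.67 and 5.75 in NILDOG3. The NILDOG3 arrays lay close together and below all Ler arrays, and the fall was by 2.48 (adjusted p = 0.00656). Its neighbour by gene code, *MAPKKK19* (AT5G67080), a kinase at the head of a MAP kinase cascade, fell by 2.38. *SBP3* (AT3G23800), a selenium-binding protein gene, read 7.63, 6.34, 7.39, 7.80 and 7.04 in Ler and 5.09, 4.36 and 4.96 in NILDOG3. No array of the groups overlapped, and it fell by 2.44.

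Single genes of other lists were called as well, while most members of those lists were not. Those lists were also chosen with earlier results of these data known. *SAG21* (AT4G02380), also called AtLEA5, a late embryogenesis abundant-like gene of mitochondria, read 10.86, 9.11, 10.24, 10.15 and 9.72 in Ler and 8.0, 7.14 and 7.64 in NILDOG3. Ler was higher in every array, and the difference was -2.42 ± 0.34 (SE; adjusted p = 0.000662). With *LEA4-1* it made 2 lower of the 22 measured genes of the LEA list (9.09% against 0.812% of all genes). In this list *M17* was higher at 0.05 only (0.57), 12 of the 22 had a higher mean (52.9% of all genes did), and the median was 0.32. LEA genes outside the list were not counted, whichever way they moved, so the 2 falls do not describe the family. *APX1* (AT1G07890), cytosolic ascorbate peroxidase, fell by 1.51. It was the 1 gene called at 0.01 of the 19 in the antioxidant list (5.26% against 0.812% of all genes). Outside that list, *SRX* (AT1G31170), sulfiredoxin, fell by 1.42, and *FER1* (AT5G01600), an iron-storing ferritin, by 1.35. *SRX* lies in the crowded stretch of chromosome 1, and the limit given there on probe sequence holds for it too. *FLC* (AT5G10140), the repressor of flowering, read 7.51, 8.17, 8.02, 8.06 and 8.01 in Ler and 6.50, 6.72 and 6.56 in NILDOG3. The groups were apart, and the difference was -1.36 ± 0.27 (SE; adjusted p = 0.00957). *FLC* was the 1 call among 28 chromatin and dormancy regulators (3.57% against 0.812% of all genes). The *FLC* call held in 6 of the 18 alternative fits. Its mean was 4.97 in NILDOG2, 6.59 in NILDOG3, 8.11 in NILDOG6 and 8.47 in NILDOG1. Against the mean of those other lines NILDOG3 did not pass (-0.59, limma adjusted p = 0.349).

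Of 26 cell cycle genes, 2 were lower at 0.01 (7.69% against 0.812% of all genes), *PCNA1* (AT1G07370), the sliding clamp of DNA polymerase, by 1.72 and *MCM2* (AT1G44900), a subunit of the replicative helicase, by 1.26. *CYCA3;1*, *PCNA2* and *MCM4* were lower and *E2FB* was higher at 0.05 only. The cell cycle list, too, was chosen with earlier results of these data known, and its counts are a description. Outside the list, and chosen after their values were seen, the histone gene *H3.1* (AT1G09200) fell by 1.43 and the histone chaperone gene *ASF1B* (AT5G38110) by 1.14. No cell cycle gene passed without NILDOG3 replicate 1, 2 or 3 or without Ler replicate 1, 4 or 5, and 1 passed without Ler replicate 3.

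The called rises off chromosome 1 were smaller, from 0.56 to 1.38. *AT5G58540*, unnamed in the table, read 5.23, 6.25, 5.66, 5.52 and 5.54 in Ler and 6.73, 7.51 and 6.82 in NILDOG3. The groups were apart, and the mean was higher by 1.38 (adjusted p = 0.00268). *AT2G42560*, also unnamed, read 9.35 to 10.38 in Ler and 10.98 to 11.30 in NILDOG3, a rise of 1.34. *RVE2* (AT5G37260), a MYB-like gene under the circadian clock, read 6.15, 6.51, 6.40, 5.73 and 5.73 in Ler and 7.24, 7.63 and 7.35 in NILDOG3. The arrays were apart and the rise was 1.3 ± 0.25 (SE; adjusted p = 0.00745). *LTI78* (AT5G52310, also *RD29A*), which responds to abscisic acid, cold and drought, rose by 1.02, with 6.06 to 6.57 in Ler and 7.16 to 7.60 in NILDOG3. *SEN1* (AT4G35770), a dark-inducible gene, rose by 1.01 and *ALS3* (AT2G37330), a transporter gene of aluminium tolerance, by 0.91. Without NILDOG3 replicate 2 no gene off chromosome 1 was higher at 0.01, and the 2 that were lower were *TRXF1*, a chloroplast thioredoxin, by 1.14 and *FBS2*, an F-box gene, by 1.3.

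None of 15 genes of abscisic acid metabolism passed at 0.05, with *NCED5* at 1.1 (adjusted p = 0.173), *CYP707A2*, which breaks down the hormone, at 0.97 (adjusted p = 0.0854) and *CYP707A3* at -0.53 (adjusted p = 0.0764). Of 35 abscisic acid signalling genes only *ABI4* passed at 0.05 (2.86% against 2.88% of all genes), at -0.98 (adjusted p = 0.0415). In gibberellin metabolism 0 of 17 genes passed at 0.01 and 2 at 0.05 (11.8% against 2.88% of all genes), both synthesis genes: *GA3OX2* at -1.21 (adjusted p = 0.0124), with 4.28 to 5.41 in Ler and 3.36 to 3.92 in NILDOG3, and *GA20OX2* at -0.99 (adjusted p = 0.0291). *GA3OX1* differed by -1.37 with overlapping arrays (adjusted p = 0.269). Seed storage and oil body genes (18), seed maturation regulators (14), genes of reserve mobilisation (23), heat shock (23), the clock list (18), nitrate (13), the raffinose family (9) and jasmonate and defence (20) gave 0 calls at 0.05. These counts cover listed members only, and the lists do not hold every gene of their function. *RVE2*, described above as under the circadian clock, was called and is not in the clock list. Nor are *AOC3* (0.75), *CYP94C1* (-1.33) and *MYC4* (-1.37), all called at 0.01, in the jasmonate and defence list. *AT3G09440* (-1.76) was called and is not in the heat shock list, and *RHA2B* (-1.12) was called and is not in the abscisic acid signalling list. At 0.05 only, *PIF3* (0.61) and *PIF6* (0.69), bHLH factors of light signalling, were higher, and *PSBX* (-1.80), *ETR2* (-0.76), *TAA1* (-1.13) and *GH3.5* (-0.80) were lower.

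The study chose the D-up gene set by comparing seed states of these genotypes, these arrays included, so that the set is not independent evidence. Of 46 D-up genes, higher in dormant seeds, 45 had a higher mean in NILDOG3 than in Ler (52.9% of all genes did), with a median difference of 0.43; 0 passed at 0.01 and 5 at 0.05 (10.9% against 2.88% of all genes). The exception among the D-up genes was *CYP81F2*, at -0.82 (adjusted p = 0.0895). Families taken by gene name differed from each other. Of 61 ribosomal protein genes, 57 had a lower mean (median -0.24, and -0.12 after centring), with 0 calls at 0.01 and 1 at 0.05. Of 26 proteasome genes, 24 had a lower mean (median -0.25, and -0.13 after centring), and 3 were lower at 0.05 (11.5% against 2.88% of all genes). Of 42 glutathione transferase genes, 4 were lower and 0 higher at 0.01 (9.52% against 0.812% of all genes), with a median of -0.04. Of 194 cytochrome P450 genes, 123 had a higher mean (median 0.06), and 5 were lower at 0.01 (2.58%).

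**Figure D4:**
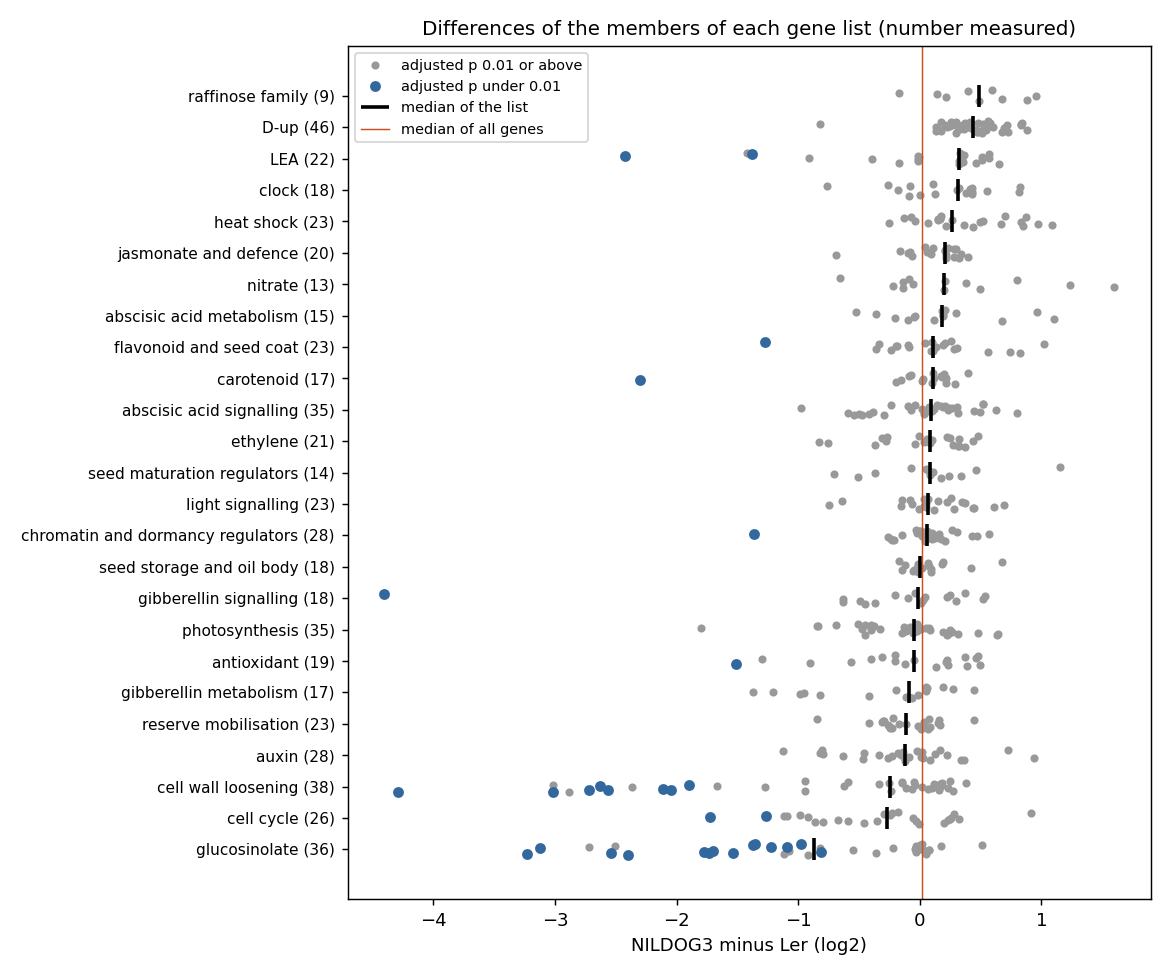
Difference between NILDOG3 and Ler means (log2, horizontal axis) for each measured member of 25 gene lists, with blue points for members past an adjusted p under 0.01, black bars for list medians and an orange line for the median of all genes (0.01). The glucosinolate (-0.87), cell cycle (-0.27) and cell wall loosening (-0.24) lists have the lowest medians.

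Set against the mean of NILDOG1, NILDOG2 and NILDOG6 in the same fit, NILDOG3 differed in 44 genes (0.206%), 16 higher and 28 lower. Since the other lines are averaged, a call can rest on 1 of them: *AT5G38780* averaged 5.64 in NILDOG1, 9.41 in NILDOG2, 10.13 in NILDOG6, 9.54 in NILDOG3 and 9.14 in Ler, and *AT1G03710* averaged 7.12 in NILDOG2 and 3.04 to 3.25 in the rest. This contrast shares the 3 NILDOG3 arrays with the comparison above and no Ler array. Of the 44 genes, 34 were on chromosome 1, 30 of them in the stretch from *AT1G19010* to *AT1G32630*, and 10 were elsewhere in the genome. Without the array of NILDOG6 replicate 1, which had the lowest array weight of the 19 (0.483), the count was 56. *AT1G23120* was higher in NILDOG3 than in the other lines by 4.13 ± 0.25 (SE; adjusted p = 9.3e-09), *ATL15* by 3.47 (adjusted p = 1.11e-07), and *AT1G27030* was lower, at -4.77 (adjusted p = 2.86e-07).

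Genes lower in NILDOG3 than in Ler also varied among the other lines. *GASA6* averaged 10.23 in Ler, 10.63 in NILDOG2, 8.67 in NILDOG6, 7.89 in NILDOG1 and 5.82 in NILDOG3. It was lower in NILDOG3 than in the mean of the other lines by the same test (-3.24 ± 0.57, SE; adjusted p = 0.0078). *EXPA1* averaged 8.93 in NILDOG2, 6.82 in NILDOG1, 6.12 in NILDOG6 and 4.28 in NILDOG3, and did not pass at 0.01 (-3.01, adjusted p = 0.0184). The NILDOG6 arrays at *EXPA1* ran from 4.75 to 8.18. *CYP83B1* (-2.15, adjusted p = 0.0416) and *EXPA3* (-1.72, adjusted p = 0.0351) did not pass at 0.01 either, whereas *SAG21* did, at -2.23 ± 0.30 (SE; adjusted p = 0.00045), as did *MAPKKK19* (-1.76, adjusted p = 0.00966) and *SLP2* (-1.20, adjusted p = 0.00651).

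**Figure D5:**
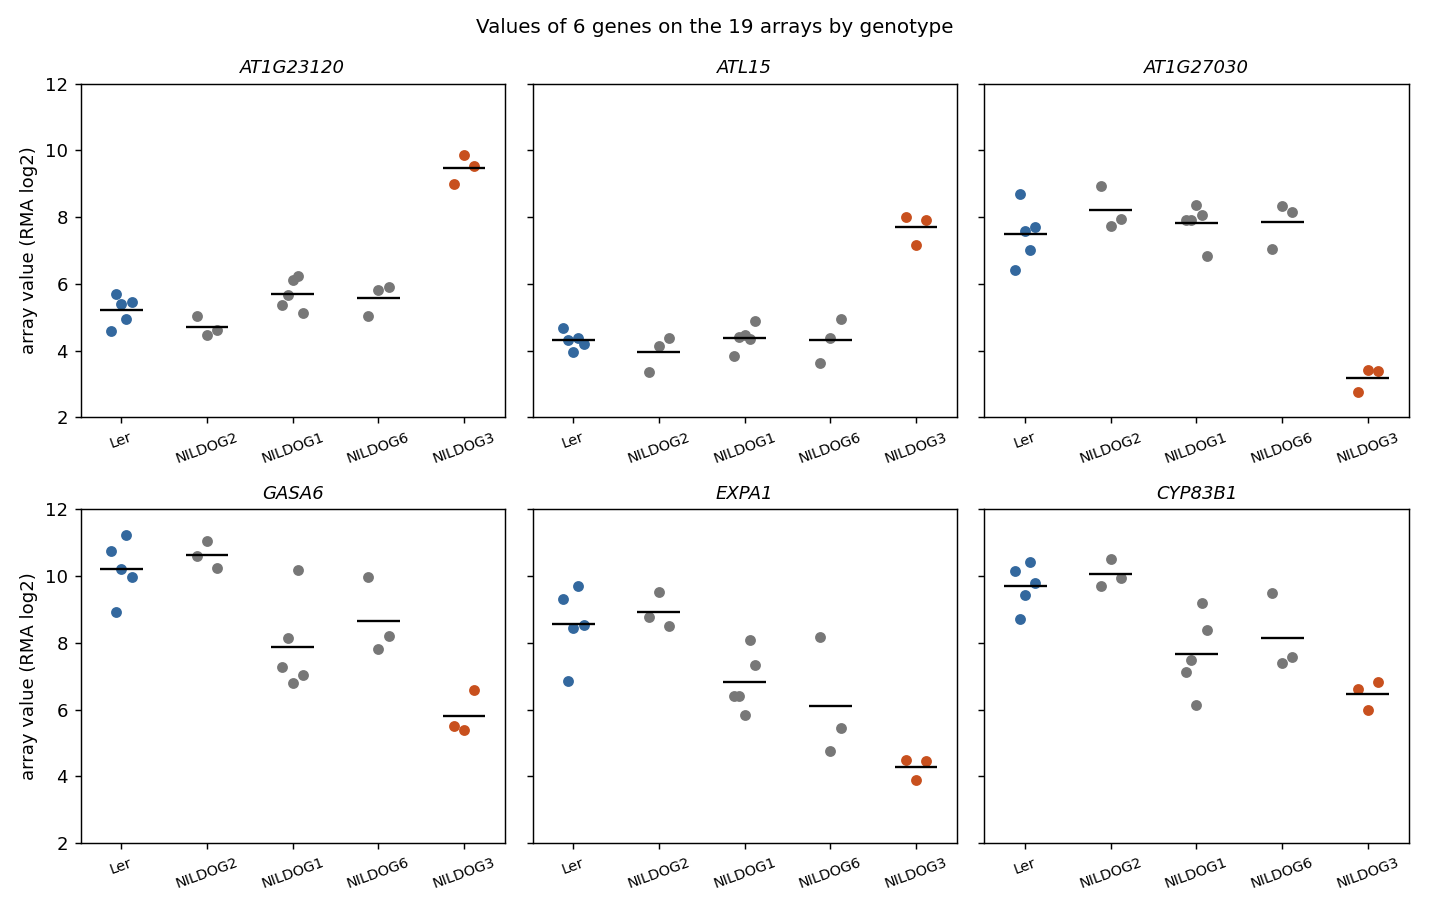
Array values (RMA log2, vertical axis) of 6 genes on all 19 arrays by genotype (horizontal axis), with 1 point per array and a line for each mean. At AT1G23120, ATL15 and AT1G27030 the NILDOG3 arrays stand apart from all other arrays, and at *GASA6*, *EXPA1* and *CYP83B1* the NILDOG1 and NILDOG6 means lie between those of Ler and NILDOG3.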

How the data were processed

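Whole seeds of the 19 samples were profiled on Affymetrix ATH1 GeneChips, 1-colour arrays with 1 probe set per gene code. The deposited values are log2 signals; the authors normalized them with RMA in R, and the version and annotation are not given in the sources used here. They ran from 1.92 to 14.61, and depth does not apply, so that the number of arrays limits precision. The labels name dry seeds in the extraction text and imbibed seeds in the treatment text. RefSeq (TAIR10.1) supplied the gene names, and 21205 of 21313 codes (99.5%) matched a locus tag; chromosomes came from the gene codes, and no coordinates are given.

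All 19 arrays entered one linear model of 5 genotype means in limma 3.58.1 (R 4.3.3), with empirical Bayes moderation and Benjamini-Hochberg adjustment over all genes; genes with an adjusted p under 0.01 were called, whatever their level. The model was checked on simulated data. Array medians were compared by an exact permutation test. Named genes were, among calls whose groups did not overlap, the 6 largest rises and 8 largest falls on chromosome 1 and the 6 largest rises and 10 largest falls off it, and called list members; other named genes were chosen after their values were seen. The gene lists and members were chosen with earlier results of these data known, and the list of glucosinolate genes was added after seeing calls. Alternatives covered thresholds, a filter at the 30th percentile of mean level, centring, quantile normalization, a prior trend, array weights, the arrays in the fit, replicate terms and leaving out each array. Promoter sequences were not analysed here, and 1 gene set is not reported here.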

Additional observations from a re-analysis of the deposited data

Results flagged for a closer look

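Among the 53 groups of array values of named genes tested for a single distant array, 1 stood out, where 2.6 would by chance. *FLC* read 7.51 in Ler replicate 1 and 8.01 to 8.17 in the other Ler arrays, a gap of 0.758 of the group's range against a critical value of 0.71.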

How the results depend on the processing

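The 30 genes named for the size of their difference kept their direction under the alternatives run on them. Over these, 375 of their values stayed past an adjusted p of 0.01 and 164 lost it, and the other genes named in the text were not followed one by one. The number of arrays, 3 against 5, limits precision, and the cause of each change below was not tested. The called genes on the whole array, on chromosome 1 and off it (173, 77 and 96) became 652, 216 and 436 with array weights, 81, 37 and 44 with Ler replicates 1 to 3 only, 96, 47 and 49 with Ler replicates 4 and 5 only, 15, 15 and 0 at 1e-04, and 614, 203 and 411 at 0.05. With 1 array left out they ran from 23 to 474, from 21 to 163 and from 2 to 311. Against the other lines the 44 calls became 167 with array weights, 17 at 1e-04, 167 at 0.05 and 92 at an unadjusted p under 0.0001, and ran from 26 to 64 with 1 array left out. Alternatives for the gene lists were chosen after seeing the data. The 8 wall genes became 14 with array weights, 5 and 3 with the earlier and later Ler replicates only, and 0 at 1e-04, with 0 to 10 when 1 array was left out. The 2 cell cycle genes became 7 with array weights, 0 with NILDOG3 and Ler alone, 0 with a term for replicates 4 and 5, 0 and 1 with the earlier and later Ler replicates only, 0 at 1e-04 and 5 at 0.05, with 0 to 2 when 1 array was left out. The 14 glucosinolate genes became 7 with the term for replicates 4 and 5, 2 and 5 with the earlier and later Ler replicates only, and 0 at 1e-04, with 0 to 18 when 1 array was left out. The difference in array medians was -0.0791 with the low filter (exact permutation p = 0.0714), -0.16 with Ler replicates 1 to 3 (p = 0.1) and -0.0745 with Ler replicates 4 and 5 (p = 0.2), and ran from -0.1412 to -0.0926 with 1 array left out. The labels do not tie a replicate number to a block of the growth design, and the numbers were not taken to pair the samples: deviations of same-numbered NILDOG3 and Ler arrays correlated at 0.11, 0.26 and -0.00, and 2 of 3 were closest to their own number. With the replicate block 160 genes were called, 68 on chromosome 1 and 92 off it, with 68 against the other lines, 7 wall genes, 0 cell cycle genes and 8 glucosinolate genes.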
